A study of Mus musculus with 39 samples.

Results

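The proteasome genes of mouse lung monocytes and monocyte-derived alveolar macrophages are described here. Members were all protein-coding genes of the deposited count table whose symbol begins with Psma, Psmb, Psmc, Psmd, Psme, Psmf or Psmg followed by a number. The rule used names and no measured value, and it found 50 genes among 43430 gene rows, 21474 of which are protein-coding. By role these were 8 alpha subunits of the core, 4 structural beta subunits, the 3 constitutive catalytic subunits Psmb5, Psmb6 and Psmb7, the 3 immunoproteasome subunits Psmb8, Psmb9 and Psmb10, the thymoproteasome subunit Psmb11, 6 ATPases of the base, 3 other base subunits, 8 lid subunits, 6 activators or regulators and 7 assembly chaperones. The remaining gene, Psmc3ip, shares only the start of its symbol, since its product is a recombination protein.

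The proteasome is a barrel-shaped protease that degrades proteins tagged with ubiquitin. A regulatory particle made of a base and a lid binds the tag, unfolds the substrate and feeds it into the core, where the beta subunits cut. Interferon gamma induces Psmb8, Psmb9 and Psmb10, which take the places of Psmb5, Psmb6 and Psmb7 in newly built cores, and the resulting immunoproteasome is known for producing peptides that fit MHC class I molecules. Cells of the monocyte lineage carry both kinds of core.

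RNA was sequenced from 39 libraries of sorted lung cells of C57BL/6J mice, an inbred strain with no engineered allele named in the labels. The 20 monocyte libraries came from naive mice and the 19 macrophage libraries came from mice after bleomycin, which damages the lung and is followed by fibrosis; these macrophages had low Siglec F. Young and old mice of each kind were given either saline or ISRIB, a compound that inhibits the integrated stress response, which makes 8 groups of 5 libraries each except for 4 in young ISRIB macrophages. The sample labels give young mice as 8 to 12 weeks and old mice as over 18 months, but in the series text they are 3 to 5 and 18 to 24 months old. According to the series text ISRIB or vehicle was injected daily from day 7 and cells were taken on day 21 after bleomycin, and no timing is given for the naive mice. All macrophages came from injured lungs and all monocytes from naive lungs, so cell type and bleomycin cannot be told apart. Nothing in the labels says whether replicates came from separate mice, so p-values measure the spread between these libraries, which may be technical.

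Libraries held between 4595331 and 16056708 counts (median 8628240). The sorted identities matched their markers: the summed level of 10 macrophage markers was 4386 to 5805 CPM (counts scaled to a common library total) in macrophages and 81.1 to 242 in monocytes, and the sum of 7 monocyte markers was 5142 to 8274 CPM in monocytes and 232 to 785 in macrophages. Other lists also differed between the cell types. A list of 8 neutrophil genes summed to 434 to 811 CPM in monocytes and 79.7 to 161 in macrophages, 7 dendritic cell genes to 31.4 to 241 against 6.88 to 32.6, and 6 cell cycle genes to 23.7 to 66.6 against 91.4 to 468. Several of the 8 neutrophil genes had too few counts in monocytes to be tested, so that sum rested mainly on the others. The part of all these lists in the results below was not tested. In bulk RNA, fewer cells of a type and less RNA per cell cannot be told apart.

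Of the 50 genes, 49 passed the filter on low counts in the fit of all libraries and in that of macrophages, and 48 in that of monocytes. Psmb11, which is made in thymic epithelium, had 2 counts in 1 library and was not tested. Psmc3ip had 275 counts over 35 libraries and dropped out of the monocyte fit. Exons of Psmb9 overlap those of Tap1 on the opposite strand over 212 bases, and exons of Psmb8 overlap an antisense gene over 498 bases. The strand setting of the counting is not given in the sources used here, so reads from those stretches cannot be assigned with certainty. Psme2b is a near-identical copy of Psme2 and held 8.54% as many counts, so its values are uncertain.

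Promoters are shown first for members that lay on opposite sides of the main comparison below. They come from RefSeq on GRCm38.p6, which matched 42 of the 50 genes, and were searched on both strands for 4 motifs over 250 bases before the start site. These are the interferon-gamma-activated site TTCNNNGAA, the interferon-stimulated response element, which is a pair of GAAA repeats spaced by any 2 bases and is bound by IRF proteins, and the antioxidant response element TGACNNNGC, bound by NFE2L1 and NFE2L2 with small Maf proteins, and the CCAAT box, bound by NF-Y. Positions are counted to the first base of a match. Capitals mark the match in each sequence, given 5′ to 3′ on the strand of the gene.
Psmb8: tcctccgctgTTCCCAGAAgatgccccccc
Psmb5: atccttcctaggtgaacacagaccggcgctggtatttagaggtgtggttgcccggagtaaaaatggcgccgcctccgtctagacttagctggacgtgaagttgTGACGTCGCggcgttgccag
Psmb6: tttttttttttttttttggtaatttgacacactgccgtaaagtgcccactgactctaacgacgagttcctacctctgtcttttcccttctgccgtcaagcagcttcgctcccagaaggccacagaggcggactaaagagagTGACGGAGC
The Psmb8 stretch lies at chr17:34198088-34198117 on the plus strand, with the interferon-gamma-activated site 97 bases before the RefSeq start, and it falls inside an annotated exon of a longer transcript of the gene. The Psmb5 stretch lies at chr14:54618023-54618145 on the minus strand with its antioxidant response element 47 bases before the start, and the Psmb6 stretch at chr11:70525207-70525356 on the plus strand with its element 9 bases before the start. The interferon-gamma-activated site was found in 2 of the 42 promoters, Psmb8 and Psmg1, against 8.13% of 27025 promoters in all. The response element for interferon was found in 3, Psmb3, Psmd4 and Psmd9, against 3.46%. The antioxidant response element was found in 5, Psmb5, Psmb6, Psmc6, Psmd12 and Psmd9, against 11.5%. The CCAAT box was found in 15, against 37.5%. As shares of the 42 promoters the counts for these motifs are 4.76%, 7.14%, 11.9% and 35.7%. No interferon or antioxidant motif was found before Psmb9 or Psmb10, and the printed matches overlap no other of these motifs. All 250 bases searched before Psmb8 and all 250 before Psmb9 lie inside annotated exons, and a missing match does not show that no site is there. Psmb7 was not among the matched genes, so its promoter was not searched. A match is a run of letters and not a site known to be bound.

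Macrophages and monocytes spent about the same share of their RNA on the proteasome but divided it differently. The 50 genes together took 0.353% ± 0.025 (SD, n = 19) of the counts in macrophages and 0.348% ± 0.035 (SD, n = 20) in monocytes. The 31 standard subunits of core, base and lid took 0.277% ± 0.020 in macrophages and 0.242% ± 0.024 in monocytes. Psmb8, Psmb9 and Psmb10 together took 0.0234% ± 0.0028 in macrophages and 0.0380% ± 0.0077 in monocytes. Psmb5, Psmb6 and Psmb7 went the other way, with 0.0235% ± 0.0024 in macrophages and 0.0161% ± 0.0022 in monocytes.

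Macrophages were compared with monocytes within each of the 4 combinations of age and treatment and over their average, using edgeR's quasi-likelihood test with Benjamini-Hochberg adjustment over all genes. A gene is called here where its adjusted p was under 0.05. In the average, 30 of the 49 tested proteasome genes were higher in macrophages, 9 were lower and 10 were not called, whereas among all 13587 genes tested 39.9% were higher and 39.2% lower. The median log2 difference of the proteasome genes was 0.25, beside -0.0034 for all genes. Most differences were modest: 3 members rose by a fold of 2 or more (Psmd1, Psma8 and Psmc3ip) and 2 fell by as much (Psma7 and Psme2b), that is 5 of 49 where 37.9% of all genes passed that limit. In young saline mice 35 of the 49 were called, 27 of them higher in macrophages, where 60.0% of all genes were called. The count was 26 in old saline (17 higher; 57.0% of all genes), 31 in young ISRIB (23 higher; 57.3%) and 33 in old ISRIB mice (24 higher; 59.4%). The plot of log2 differences by role shows each gene; some roles held genes of both directions.

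**Figure D1:**
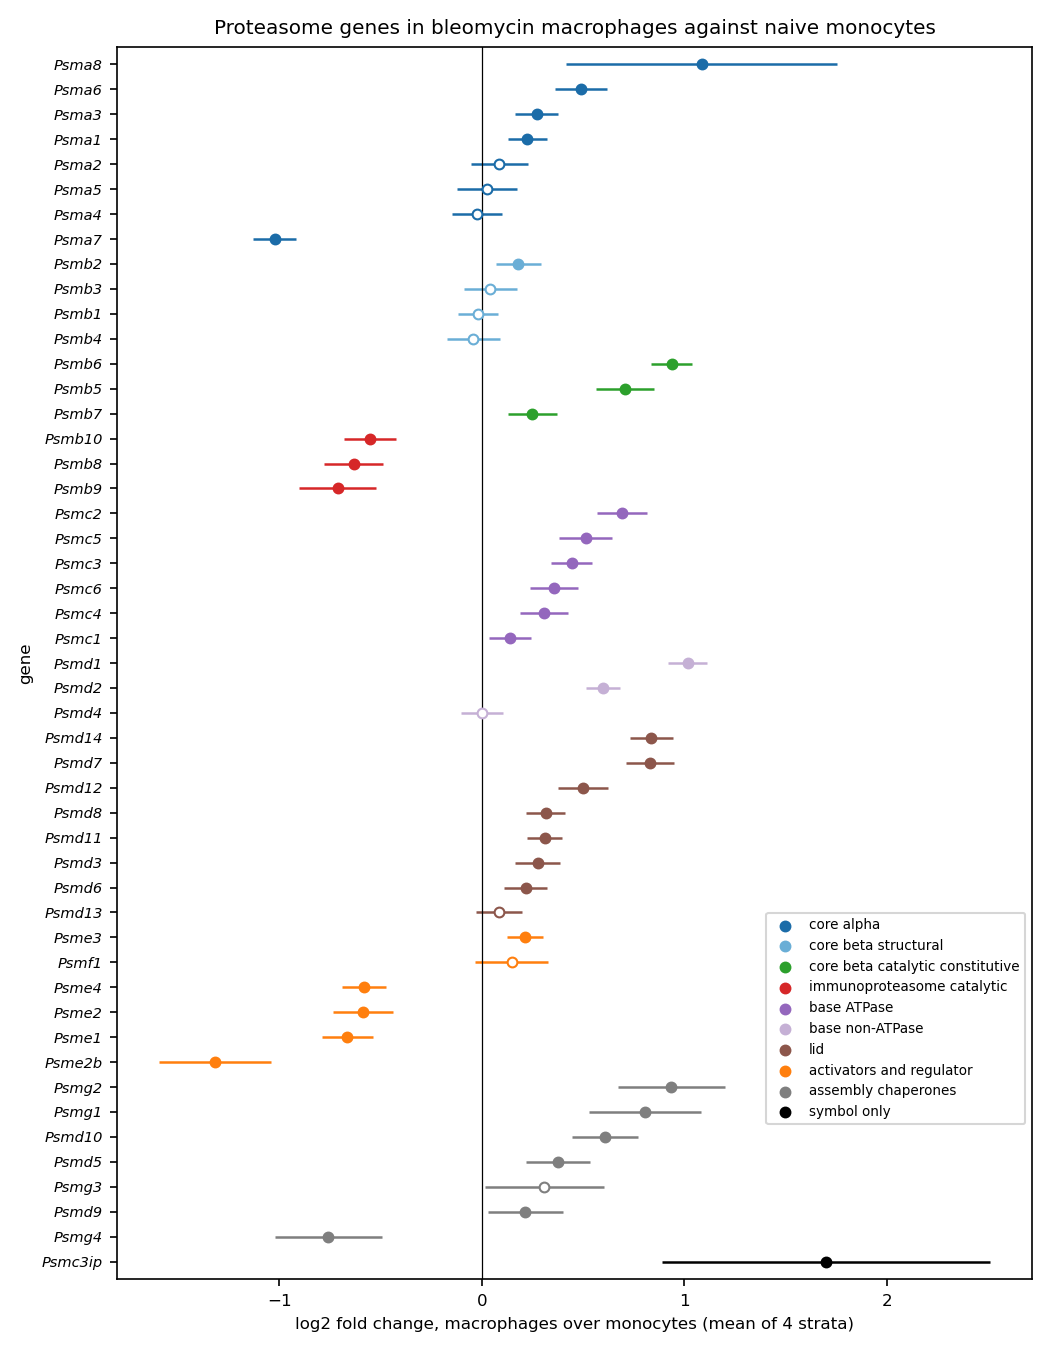
Log2 difference between macrophages and monocytes for the 49 tested proteasome genes, averaged over the 4 combinations of age and treatment and grouped by role. Lines are 95% intervals, filled points passed an adjusted p of 0.05 and open points did not; all 3 immunoproteasome subunits lie below 0 and all 3 constitutive catalytic subunits above.

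All 3 immunoproteasome subunits were lower in macrophages in the average and in each of the 4 combinations. Psmb8, which carries the chymotrypsin-like activity of the immunoproteasome (β5i), lies at chr17:34197721-34201454 on the plus strand and measured 91.5 to 157 CPM in macrophages with a median of 124, against 133 to 279 with a median of 183 in monocytes. Psmb9 (β1i), its neighbour in the MHC region at chr17:34181987-34187764 on the minus strand, measured 26.6 to 55.0 CPM with a median of 41.7 in macrophages and 33.7 to 118 with a median of 64.2 in monocytes. Psmb10 (β2i), at chr8:105935735-105938444 on the minus strand, measured 60.3 to 101 CPM with a median of 76.2 against 84.2 to 159 with a median of 108. The libraries of the cell types overlapped for each of these genes, so the difference was in the centre of the groups and did not separate every library.

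The log2 differences were -0.63 ± 0.07 (SE) for Psmb8 (edgeR adjusted p = 6.3e-10), -0.71 ± 0.10 for Psmb9 (adjusted p = 1.7e-08) and -0.55 ± 0.07 for Psmb10 (adjusted p = 7.7e-10). Over the 4 combinations they ran from -0.73 to -0.59 for Psmb8, from -0.75 to -0.65 for Psmb9 and from -0.61 to -0.51 for Psmb10. The value for old ISRIB mice rested partly on 1 library. Psmb9 in old ISRIB monocytes was 118, 55.4, 56.4, 33.7 and 46.0 CPM in replicates 1 to 5, and in old ISRIB macrophages it was 42.7, 31.2, 37.8, 42.6 and 41.7 CPM. Monocyte replicate 1 stood far above its group for Psmb8, Psmb9 and Psme2, and also for Irf1, Nlrc5 and Tap1. Without it, the Psmb9 difference in old ISRIB mice was -0.28 with an adjusted p of 0.111, and that of Psmb8 was -0.42 with an adjusted p of 0.00978. The averages without that library were -0.62 for Psmb9 and -0.59 for Psmb8.

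The constitutive catalytic subunits were higher in macrophages. Psmb6 (β1, caspase-like), at chr11:70525367-70527858 on the plus strand, measured 86.3 to 132 CPM in macrophages and 41.1 to 66.8 in monocytes, with medians of 97.9 and 53.6, and no macrophage library overlapped a monocyte library. Psmb5 (β5, chymotrypsin-like), at chr14:54614119-54618022 on the minus strand, measured 42.2 to 71.5 CPM against 25.1 to 55.1, with medians of 56.1 and 33.2, and the libraries overlapped. Psmb7 (β2, trypsin-like), at chr2:38588036-38644087 on the minus strand, measured 63.4 to 113 CPM against 49.96 to 89.1, with medians of 78.9 and 68.2. The log2 differences were 0.94 ± 0.05 for Psmb6 (adjusted p = 1.2e-19), 0.71 ± 0.07 for Psmb5 (adjusted p = 2.3e-11) and 0.25 ± 0.06 for Psmb7 (adjusted p = 0.00046). Psmb6 and Psmb5 were called in all 4 combinations. Psmb7 was called in young mice (0.46 with saline and 0.38 with ISRIB) and not in old mice, where its values were 0.03 and 0.13. The young ISRIB call was lost without young ISRIB macrophage replicate 3 (0.26, adjusted p = 0.112).

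**Figure D2:**
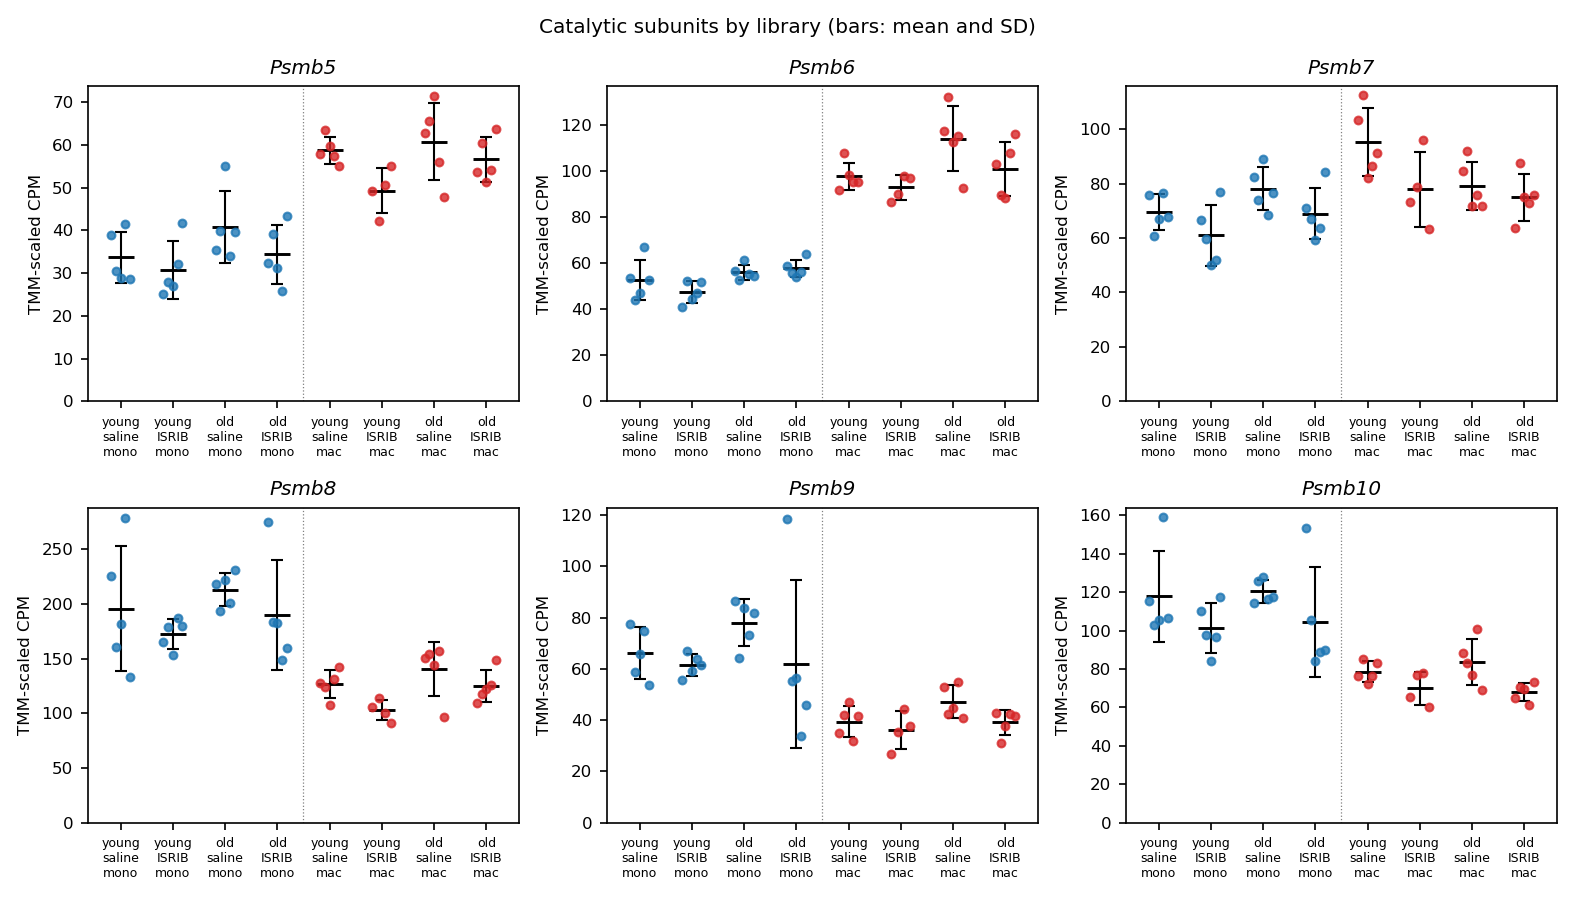
Level in CPM (scaled by TMM factors) of the constitutive subunits Psmb5, Psmb6 and Psmb7 and the immunoproteasome subunits Psmb8, Psmb9 and Psmb10 in each library of the 8 groups, monocytes in blue and macrophages in red, with bars for the mean and SD. Psmb6 separates the cell types fully, and replicate 1 of old ISRIB monocytes is the highest Psmb9 value at 118 CPM.

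Levels of different genes can be compared only per length of exon. On that scale Psmb6 had 54.4 CPM per kb in macrophages and 28.5 in monocytes, Psmb5 had 63.1 and 38.8, and Psmb7 had 24.0 and 20.3. The immunoproteasome subunits had 36.9 and 57.0 CPM per kb for Psmb8, 11.1 and 18.3 for Psmb9, and 44.2 and 65.1 for Psmb10. So Psmb8 stood above Psmb5 in monocytes and below it in macrophages on the scale of levels per length. Exon length here is the union over all annotated transcripts, which exceeds the length of the usual transcript by an amount that varies by gene. Which of Psmb8 and Psmb5 was higher in macrophages is therefore not settled by these values.

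Each immunoproteasome subunit was also set against the constitutive subunit whose place it takes, as the log2 ratio of their counts within a library. This ratio needs no scaling between libraries, and its difference between groups does not depend on gene length. Psmb8 over Psmb5 averaged 1.13 ± 0.19 (SD) in macrophages and 2.47 ± 0.28 in monocytes, which puts the Psmb8 count 5.54 times as high as that of Psmb5 in monocytes. Psmb9 over Psmb6 averaged -1.33 ± 0.19 and 0.29 ± 0.38 (ratios of 0.397 and 1.22). Psmb10 over Psmb7 averaged -0.12 ± 0.19 and 0.67 ± 0.22 (ratios of 0.921 and 1.59).

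In each of the 4 combinations and for each of the 3 ratios, every macrophage library lay below every monocyte library. The 2-sided exact permutation p was 0.007937 in all 12 comparisons, the smallest these group sizes allow, with an adjusted p of 0.0238 over the 36 ratio tests made. The log2 differences of Psmb8 over Psmb5 were -1.41 (young saline), -1.45 (young ISRIB), -1.21 (old saline) and -1.32 (old ISRIB). Those of Psmb9 over Psmb6 were -1.65, -1.76, -1.74 and -1.34 in the same order, and those of Psmb10 over Psmb7 were -1.01, -0.89, -0.56 and -0.71. Without replicate 1 of old ISRIB monocytes, the Psmb9 over Psmb6 difference in old ISRIB mice was -1.08 with an adjusted p of 0.0204 by the same exact test. Leaving out any young ISRIB monocyte library brought the 3 ratios of that combination to an adjusted p of 0.0791, at the smallest exact p that 4 libraries against 4 allow, with differences between -1.80 and -0.85.

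**Figure D3:**
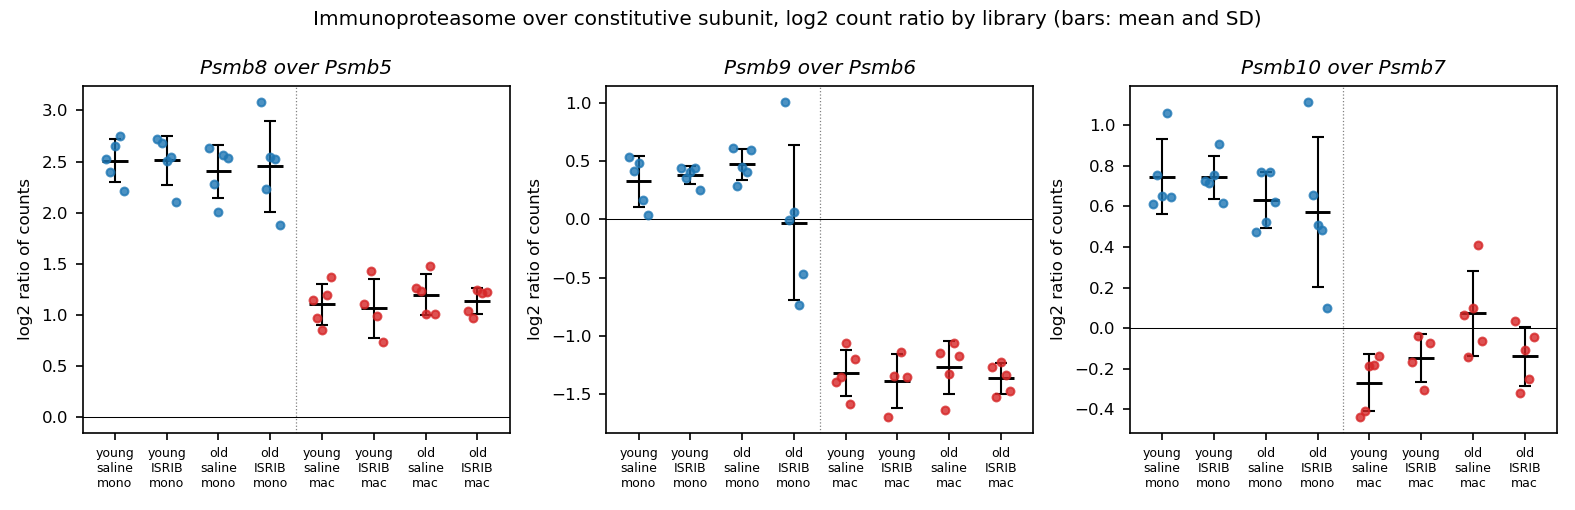
Log2 count ratio of each immunoproteasome subunit over the constitutive subunit it replaces, per library in the 8 groups, with bars for the mean and SD. In each panel the macrophage groups lie below the monocyte groups of the same age and treatment, for Psmb8 over Psmb5 by 1.21 to 1.45 log2 units.

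Of the 6 activators and regulators, 4 were lower in macrophages, 1 was higher and 1 was not called. Among all genes tested 39.2% were lower and 39.9% higher. The 4 include Psme2b, the near-identical copy of Psme2. Psme1 and Psme2 encode the 2 subunits of PA28, an interferon-induced cap linked to antigen processing, and both were lower in macrophages. Psme1, at chr14:55578123-55581529 on the plus strand, measured 81.4 to 142 CPM in macrophages and 141 to 250 in monocytes, with medians of 111 and 166 and a log2 difference of -0.66 ± 0.06 (adjusted p = 4.3e-12). Psme2, at chr14:55587441-55591113 on the minus strand, measured 54.3 to 108 CPM and 90.1 to 174, with medians of 86.1 and 116 and a difference of -0.59 ± 0.08 (adjusted p = 7.2e-09). Both passed the test in all 4 combinations. Psme4, which encodes the nuclear activator PA200, was also lower, with 76.5 to 122 CPM against 120 to 178 and a log2 difference of -0.58 ± 0.06 (adjusted p = 2.6e-12). The copy Psme2b was lower at a low level, with medians of 4.68 and 12.3 CPM. Psme3, the nuclear PA28γ that interferon does not induce, was higher by 0.21 on the log2 scale, and the inhibitor Psmf1 was not called (0.15, adjusted p = 0.137).

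Base and lid genes were mostly higher in macrophages, where 39.9% of all genes tested were higher. All 6 ATPases of the base, which unfold and translocate substrates, were higher, from 0.14 on the log2 scale for Psmc1 to 0.69 for Psmc2. Psmc2 measured 78.4 to 106 CPM in macrophages and 46.5 to 93.8 in monocytes. The 2 large scaffold subunits of the base were higher without any overlap: Psmd1 (chr1:86064387-86139151, plus strand) measured 115 to 171 CPM against 59.9 to 96.0, and Psmd2 measured 218 to 278 against 110 to 187. Psmd1 rose by 1.02 ± 0.05 (adjusted p = 4.4e-21), and Psmd2 by 0.60. The ubiquitin receptor Psmd4 was not called at 0.00.

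In the lid, 7 of 8 genes were higher, beside 39.9% of all genes tested, and Psmd13 was not called (0.08). Psmd14 encodes the deubiquitinase that removes the ubiquitin chain from a substrate, and lies at chr2:61711694-61800376 on the plus strand. It measured 66.4 to 96.7 CPM in macrophages and 27.4 to 54.8 in monocytes with no overlap, a log2 difference of 0.84 ± 0.05. Psmd7, its partner in the same dimer, rose by 0.83 ± 0.06, with medians of 67.5 and 37.8 CPM. The other called lid genes rose by 0.22 (Psmd6) to 0.50 (Psmd12).

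Of the remaining 12 core genes, 5 were higher in macrophages, 1 was lower and 6 were not called. Among all genes tested 39.9% were higher and 39.2% lower. Psma7 (α4), at chr2:180036374-180042433 on the minus strand, measured 77.2 to 113 CPM in macrophages and 148 to 235 in monocytes. The libraries did not overlap, and the log2 difference was -1.02 ± 0.05 (adjusted p = 3.0e-20). Psma7 was the single standard subunit that was lower, beside 22 that were higher and 8 that were not called. Psma6 rose by 0.49, Psma3 by 0.27 and Psma1 by 0.22, while Psma2, Psma4 and Psma5 were not called (0.09, -0.02 and 0.02). Psma8, the testis-specific relative of Psma7, was higher by 1.09 ± 0.34 from a level of 0 to 7.7 CPM over all libraries. Among the structural beta subunits Psmb2 rose by 0.18 (adjusted p = 0.0047), and Psmb1, Psmb3 and Psmb4 were not called.

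Counted by whole libraries, 5 proteasome genes separated all 19 macrophage from all 20 monocyte libraries: Psmb6, Psmd1, Psmd2 and Psmd14 were higher and Psma7 was lower. Of 12019 genes whose mean reached 1 CPM, 12.8% separated the cell types with macrophages higher and 10.8% with macrophages lower, so full separation was not frequent among proteasome genes.

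Assembly chaperones, which help build the core and the base and then leave, were mostly higher in macrophages. Among all genes tested 39.9% were higher. Psmg1 and Psmg2 form the dimer on which the alpha ring is built. Psmg2 measured 7.03 to 19.7 CPM in macrophages and 3.91 to 10.6 in monocytes (log2 difference 0.94), and Psmg1 measured 5.95 to 17.3 and 3.27 to 11.4 (0.81). Psmg4 belongs to the other chaperone pair and was lower, with 2.96 to 17.1 CPM against 8.04 to 19.2 and a log2 difference of -0.76 ± 0.13; its partner Psmg3 was not called (0.31, adjusted p = 0.0568). The base chaperones Psmd10, Psmd5 and Psmd9 were higher by 0.61, 0.37 and 0.22. The call of Psmd9 was lost in 13 of 45 other settings, that of Psmc1 in 2 and that of Psmb2 in 1, whereas no called value changed sign in any of them.

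Proteasome parts and partners listed under other symbols were mixed: 6 of 10 were higher and 2 lower, where 39.9% of all genes tested were higher and 39.2% lower. Usp14, a deubiquitinase bound to the base, rose by 1.32 on the log2 scale, Txnl1 by 0.52 and the ligase Ube3c by 0.37. Sem1, a small lid subunit, fell by 0.52, and Pomp, the chaperone that matures the core and is tied to immunoproteasome assembly, fell by 0.29. The ubiquitin receptor Adrm1 was not called (0.10). Among 5 genes that supply ubiquitin, Ubb and Uba6 were higher and Rps27a, a fusion of ubiquitin and a ribosomal protein, was lower (-0.99). Of 10 shuttle and segregase genes 7 were higher, among them the segregase Vcp by 0.59 and its cofactor Nsfl1c by 0.57.

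Of 7 genes known to regulate proteasome genes, 1 was higher in macrophages, 4 were lower and 2 were not called, where 39.9% of all genes tested were higher and 39.2% lower. Nfe2l1, which activates standard proteasome genes when proteasome activity is short, measured 198 to 316 CPM in macrophages and 90.3 to 125 in monocytes and rose by 1.36 on the log2 scale. Its relative Nfe2l2 was not called (-0.01, with 208 to 325 CPM against 150 to 496). Ddi2, the protease that cleaves the Nfe2l1 protein into its active form, was lower (-0.64).

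All 8 genes of the interferon gamma list were lower in macrophages, as were 39.2% of all genes tested. Irf1, an interferon-induced activator of Psmb9, measured 29.9 to 64.3 CPM in macrophages and 114 to 640 in monocytes and fell by 2.34 on the log2 scale. Nlrc5, the activator of MHC class I genes, fell by 1.49 and the receptor chain Ifngr1 by 1.82. Ifng itself, counted among the 8, was at 0 to 1.6 CPM over all libraries. It had too few counts to be tested in the fit of either cell type alone. Of 10 genes for loading peptides on class I molecules 6 were higher and 3 lower, beside 39.9% and 39.2% of all genes. The peptide transporter genes Tap1 and Tap2 fell by 1.49 and 0.42 and Tapbpl by 0.68, whereas Calr rose by 1.37, Pdia3 by 0.81, B2m by 0.48 and H2-K1 by 0.42. Whether any of these regulators had a part in the proteasome differences was not tested.

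**Figure D4:**
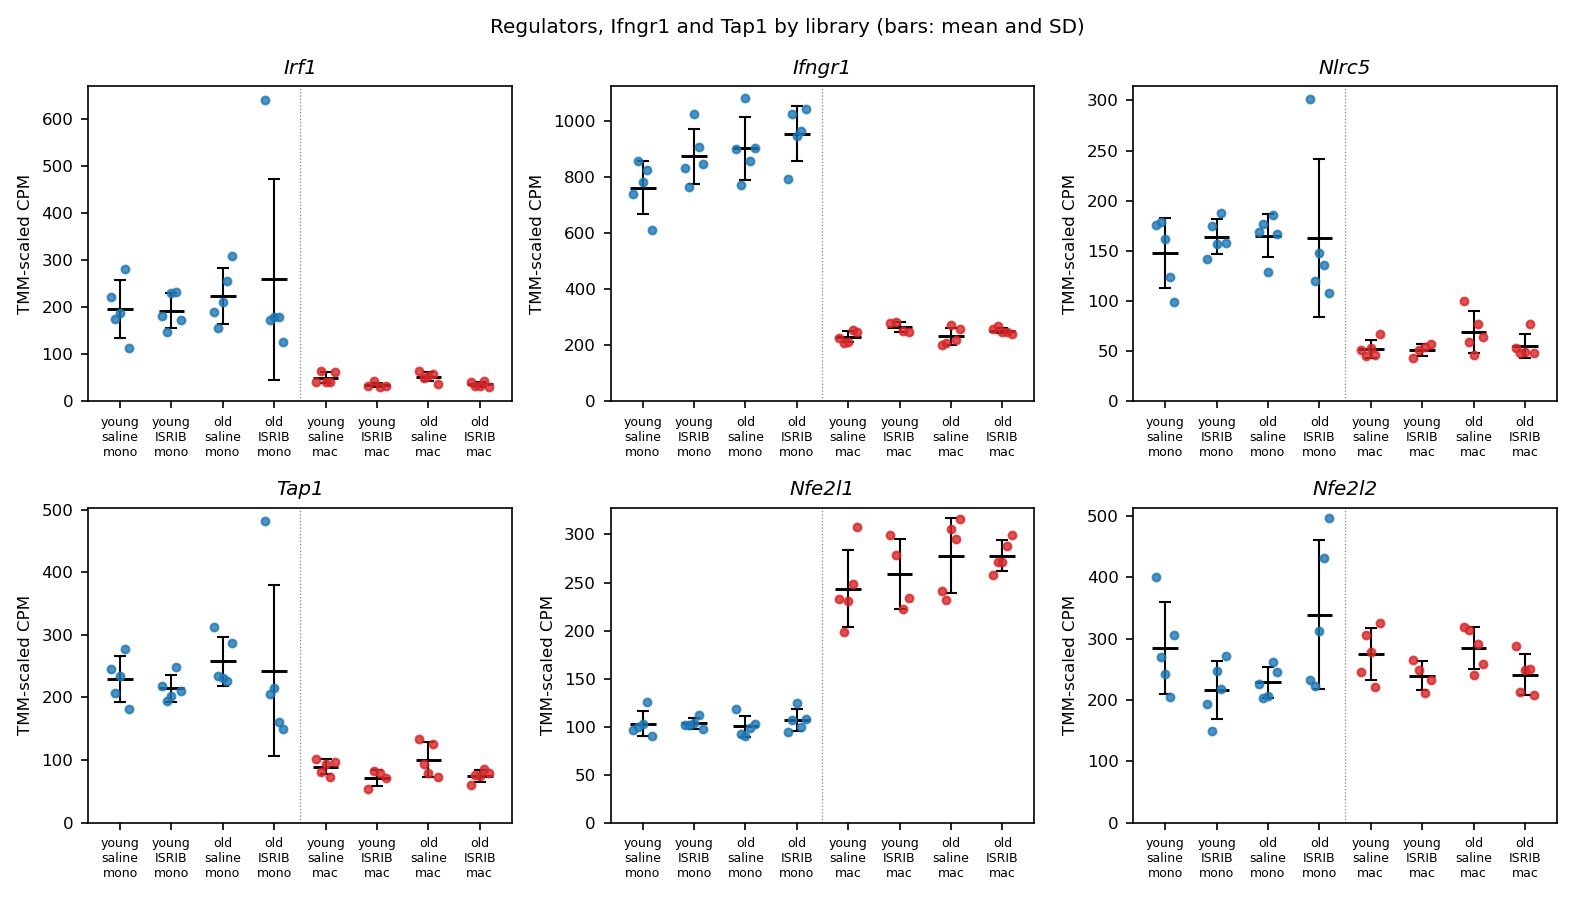
Level in CPM (scaled by TMM factors) of Irf1, Ifngr1, Nlrc5, Tap1, Nfe2l1 and Nfe2l2 in each library of the 8 groups, monocytes in blue and macrophages in red, with bars for the mean and SD. Irf1 and Nfe2l1 separate the cell types in opposite directions, and replicate 1 of old ISRIB monocytes has the highest Irf1 value at 640 CPM.

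The age comparison asked whether proteasome genes differ between old and young mice in each cell type. In saline macrophages none of the 49 genes passed edgeR's test, where 1.16% of all genes did; 6 had an unadjusted p under 0.05, as did 12.7% of all genes, and DESeq2 called 1, Psmb2. In ISRIB macrophages none passed (0.937% of all genes did); 3 had an unadjusted p under 0.05, as did 12.2% of all genes, and DESeq2 called 0. In monocytes none of 48 passed with saline, with ISRIB or on average, where 0.0247%, 0.0% and 0.123% of all genes did; 2 members had an unadjusted p under 0.05 in each, beside 8.81%, 6.6% and 8.24% of all genes, and DESeq2 called 0. No member passed the test of the difference between the age effects of macrophages and monocytes with saline (0.25% of all genes were called; 6 members and 10.9% of all genes had an unadjusted p under 0.05, and DESeq2 called 0). Without young saline monocyte replicate 4, Psmb2 was called there with a difference of -0.65, and the share of all genes called in that refit is not reported here.

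Averaged over saline and ISRIB, 1 proteasome gene differed with age in macrophages, where 4.86% of all genes were called. Psmd9, a chaperone of base assembly, was 17.03, 14.7, 20.1, 19.4 and 24.2 CPM in young saline macrophages and 24.3, 23.6, 24.9, 24.0 and 17.9 in old saline macrophages. With ISRIB it was 16.2, 18.1, 13.8 and 13.6 CPM in young and 26.1, 19.4, 17.8, 23.1 and 29.7 in old macrophages. The old groups were higher but overlapped the young ones, and the log2 difference was 0.41 ± 0.11 (adjusted p = 0.0356). The call did not hold in all settings: among others, it was lost with limma voom (adjusted p = 0.0763), in the fit of all libraries (0.104) and when any of 11 of the 19 libraries was left out (young saline 1, 2 or 4, young ISRIB 3 or 4, old saline 1, 3 or 4, or old ISRIB 1, 4 or 5), with differences of 0.36 to 0.41. Exons of Psmd9 overlap an opposite-strand RNA gene over 1849 bases.

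Psmb2 was the member with the smallest p in saline macrophages. It measured 89.3, 87.2, 80.2, 71.3 and 80.3 CPM in young and 67.2, 76.6, 58.5, 58.4 and 57.2 in old saline macrophages, so that a single old library lay within the young range. The log2 difference was -0.39 ± 0.11 with an adjusted p of 0.0667. It passed the threshold with DESeq2 (-0.38), with scaling by library totals alone (-0.43), with no filter on low counts (-0.38) and without old saline macrophage replicate 2 (-0.46). Over all genes this comparison had 60 to 468 calls across 8 alternatives in processing, beside 141 as reported. The count of all genes called without that replicate is not reported here. The sum of 9 B and plasma cell markers moved with age in macrophages, from 6.97 to 29.3 CPM in young saline and 9.48 to 23.6 in young ISRIB libraries to 21.7 to 415 in old saline and 152 to 597 in old ISRIB libraries. The sum of 10 T and NK cell markers went from 4.94 to 7.16 and 6.06 to 11.1 to 7.27 to 26.1 and 15.9 to 37.2 CPM in the same groups. Their part in the age differences was not tested.

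The immunoproteasome subunits did not pass the test with age. In saline macrophages the log2 differences of old over young were 0.13 for Psmb8, 0.23 for Psmb9 and 0.06 for Psmb10, with adjusted p-values of 0.712, 0.529 and 0.877. Psmb8 was 128, 124, 108, 131 and 142 CPM in young and 151, 154, 144, 157 and 96.5 in old saline macrophages, so 4 old libraries lay above all young ones and replicate 5 lay below them all. Without that replicate, the averaged age difference of Psmb8 in macrophages was called at 0.25, and the share of all genes called in that refit is not reported here. Among the ratio tests, Psmb10 over Psmb7 was higher in old than in young saline macrophages by 0.34 ± 0.11 (SE), from -0.27 to 0.07. The exact permutation p was 0.0159, with an adjusted p of 0.0440. That adjustment pooled all 36 ratio tests, among them those between cell types, which were all at the smallest exact p. The adjusted p depends on this pooling, and the tests within cell types were not adjusted apart. The old and young groups overlapped. The adjusted p rose to 0.0659 or more when young saline replicate 1, 2, 3 or 4 or old saline replicate 4 was left out (differences of 0.26 to 0.36). With ISRIB the same difference was 0.008. In saline macrophages Psmb7 itself had a log2 difference of -0.29 with age (edgeR adjusted p = 0.278), beside 0.06 for Psmb10. The ratio thus moved more through Psmb7 than through the immunoproteasome subunit.

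ISRIB was compared with saline within each age and cell type, to see whether blocking the integrated stress response moved these genes. No proteasome gene passed edgeR's test in macrophages or monocytes, young, old or on average. The share of all genes called was 0.83% for the macrophage average and 0.0% for young macrophages, old macrophages and each monocyte comparison. At an unadjusted p under 0.05 there were 12 members in young macrophages (12.4% of all genes), 2 in old macrophages (9.14%) and 13 in the macrophage average (16.6%). In monocytes there were 0 in young mice (6.65% of all genes), 2 in old mice (7.54%) and 5 in the average (7.49%). DESeq2 called Psmb2 in young macrophages (-0.41) and Psmd14 in the macrophage average (-0.23) and no member elsewhere. Calls over all genes also moved with the processing. In young macrophages they were 0 to 224 over 8 alternatives, beside 0 as reported. In the macrophage average they were 17 to 640 over 7 alternatives, beside 101 as reported. No member passed the test of the difference between the ISRIB effects of old and young mice in either cell type (edgeR and DESeq2 called 0; 2 members in macrophages and 1 in monocytes had an unadjusted p under 0.05, as did 5.1% and 7.11% of all genes).

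Most estimates lay slightly below 0 all the same. In the macrophage average 45 of 49 members had a lower value with ISRIB, with a median log2 difference of -0.108 beside -0.0039 for all genes. The counts were 41 of 49 in young macrophages (median -0.137) and 38 of 49 in old macrophages (median -0.084), and 43 of 48 in the monocyte average (median -0.114). Members share their libraries, so these counts describe these samples and are no test. The share of counts on all 50 genes was 0.378% ± 0.013 with saline and 0.338% ± 0.021 with ISRIB in young macrophages. It was 0.354% ± 0.032 and 0.339% ± 0.006 in old macrophages. In monocytes it was 0.347% ± 0.052 and 0.3285% ± 0.019 in young and 0.378% ± 0.023 and 0.337% ± 0.026 in old mice. In young macrophages 6 of 48 genes were lower in every ISRIB library than in any saline library (2.25% of all genes). These were Psma4, Psmb5, Psmc4, Psmd14, Psme1 and Psme2, and none was higher throughout (1.31%). Old macrophages had 1 such lower gene, Psmd11 (0.965%), young monocytes none (0.3%) and old monocytes 2, Psma1 and Psmb2 (0.774%).

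**Figure D5:**
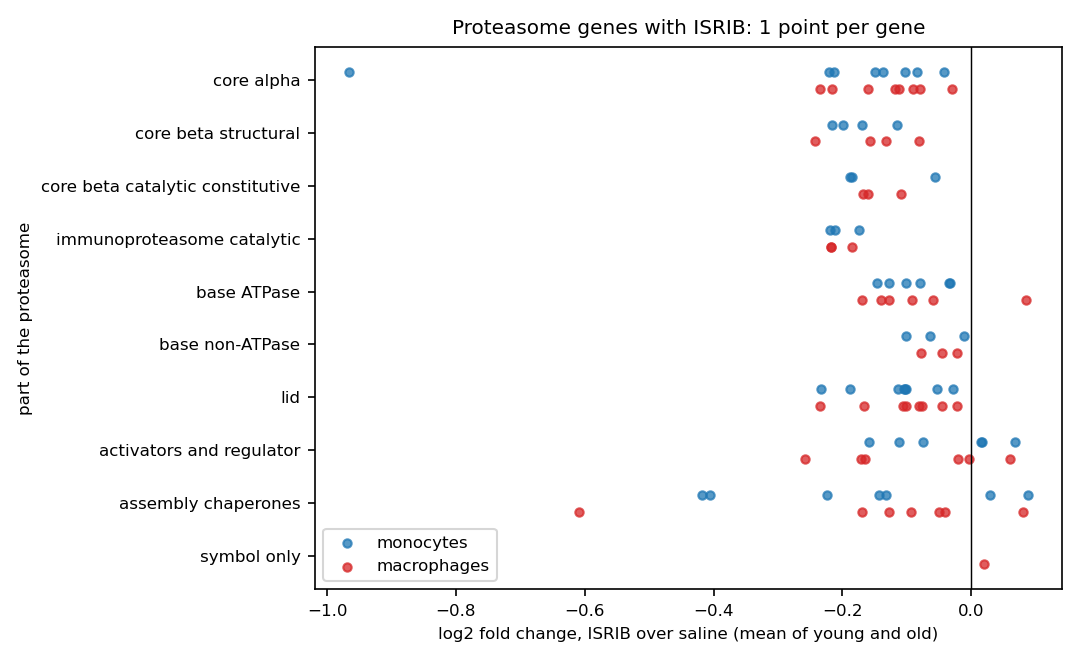
Log2 difference between ISRIB and saline, averaged over young and old mice, for each proteasome gene grouped by role, with monocytes in blue and macrophages in red. Most points lie just below 0 in both cell types (45 of 49 genes in macrophages and 43 of 48 in monocytes), and none passed an adjusted p of 0.05.

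Psmd14 had the smallest p in the macrophage average, with a log2 difference of -0.23 ± 0.07 and an adjusted p of 0.0808. It measured 92.3, 94.3, 96.7, 91.9 and 92.0 CPM in young saline and 66.4, 72.4, 78.7 and 74.0 in young ISRIB macrophages, which do not overlap. In old macrophages it was 77.7, 92.4, 67.3, 85.4 and 69.3 CPM with saline and 77.7, 68.0, 67.4, 72.1 and 69.5 with ISRIB, which overlap. Its estimate in monocytes was of the same size (-0.23 ± 0.09, adjusted p = 0.617).

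Single libraries moved some of these calls. Without young ISRIB macrophage replicate 3, Psmb2 and Psmd14 were called in young macrophages (-0.50 and -0.40) and in the average (-0.29 and -0.26). Without old saline macrophage replicate 5, Psma4, Psmb8 and Psmd14 were called in the average (-0.28, -0.27 and -0.26), and without old saline macrophage replicate 3 Psmd14 was (-0.27). How many of all genes were called in these refits is not reported here. Whether these members stood out from other genes there is therefore not known. The immunoproteasome subunits had differences in the macrophage average of -0.22 for Psmb8, -0.18 for Psmb9 and -0.22 for Psmb10, with adjusted p-values of 0.163, 0.380 and 0.132. Of their regulators, Irf1 was lower with ISRIB in the macrophage average (-0.53, adjusted p = 0.0325), from 37.01 to 64.3 CPM with saline to 29.9 to 43.0 with ISRIB, and Nlrc5 was not called (-0.16). The sum of 6 cell cycle genes also moved, from 273 to 340 CPM in young saline to 91.4 to 353 in young ISRIB macrophages and from 134 to 468 to 117 to 215 in old macrophages, and its part was not tested.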

How the data were processed

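RNA of sorted lung monocytes and macrophages was sequenced after polyA selection with the NEBNext Ultra kit on a NextSeq instrument, per the labels. The authors deposited a table of raw counts, with Ensembl genes as rows and libraries as columns, unscaled. The submitters' processing notes name bcl2fastq 2.19.1, FastQC, Trimmomatic 0.36, STAR 2.6.0, HTSeq 0.11.2 and mm10. Not given in the sources used here were the annotation release, the strand setting and the handling of reads that map to several places. Symbols were matched for 42462 of 43430 gene rows (97.8%), and 18236 rows held no count.

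Counts were fitted with edgeR 4.0.16 (R 4.3.3; limma 3.58.1) by quasi-likelihood with TMM factors and filterByExpr (minimum count 10, minimum total 15), in 1 fit of 19 macrophage libraries (12171 genes), 1 of 20 monocyte libraries (12170 genes) and 1 of all 39 (13587 genes), with groups as the only term. P-values were adjusted by Benjamini-Hochberg over all genes of each contrast, at a threshold of 0.05. Levels are CPM scaled by TMM factors over all 39 libraries; marker sums are plain CPM. Ratios of counts were tested by exact 2-sided permutation over libraries, with 36 tests adjusted together. Fits were tested on simulated data first. Alternatives were DESeq2 1.42.0, limma voom, RLE factors, library totals, no filter, other sets of libraries, the replicate number as a block, a pseudocount of 0.5 for ratios, and leaving out each library. Same-numbered libraries did not deviate together, so the numbers were not taken as pairs. Python 3.11.15 with numpy 2.4.6 and pandas 2.3.3 did the rest.

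The members and all gene lists were chosen with earlier results of these data known. Any member may be named; those described in full are the called members, Psmb5 to Psmb10, Psme1 and Psme2, together with those whose calls change with the processing or whose libraries separate. Of the other lists, 7 genes are named whatever their values (Irf1, Nlrc5, Nfe2l1, Nfe2l2, Pomp, Tap1 and Adrm1) and otherwise up to 4 called genes per list with the largest differences; Tap2, Ddi2, Uba6, Ubb, Ifng, B2m and H2-K1 were in part chosen after their values were seen. Some genes of these lists are not reported here.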

Additional observations from a re-analysis of the deposited data

Results flagged for a closer look

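A library that stood far from the others of its group was looked for in 264 groups of values (members and regulators named above, by group), and 19 were found; chance alone marks about 1 in 20 groups. Replicate 1 of old ISRIB monocytes accounted for 6 of the 19. Its values were 275 CPM for Psmb8 (others 149 to 184), 118 for Psmb9 (33.7 to 56.4), 174 for Psme2 (97.5 to 114), 640 for Irf1 (125 to 180), 301 for Nlrc5 (108 to 148) and 482 for Tap1 (150 to 215). All 6 are genes of the immunoproteasome, its cap or interferon signalling and peptide transport, and all 6 were high in that library.

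Replicate 4 of young saline monocytes had the lowest total of all 39 libraries, at 4595331 counts, and accounted for 4 of the 19. It had 159 CPM for Psmb10 (others 103 to 116), 110 for Psmd2 (151 to 163), 31 for Psmd9 (13.2 to 14.6) and 87.2 for Psmb2 (49.9 to 59.8). Replicate 3 of old saline monocytes had 55.1 CPM for Psmb5 (33.9 to 39.8) and 19.2 for Psmg4 (14.5 to 15.1), replicate 5 of the same group had 149.6 for Psmd2 (178 to 187), and replicate 2 of old ISRIB monocytes had 22.7 for Psmd9 (14.5 to 16.09).

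Among macrophages, replicate 5 of the old saline group was low for Psmb8 at 96.5 CPM (others 144 to 157) and for Psmd9 at 17.9 (23.6 to 24.9). In old ISRIB macrophages replicate 5 had 96.8 CPM for Psmd4 (72.9 to 78.7) and replicate 4 had 76.96 for Nlrc5 (47.8 to 53.2). Replicate 2 of young ISRIB macrophages had 42.1 CPM for Irf1 (30.9 to 32.6). What sets these libraries apart was not tested.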

How the results depend on the processing

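With macrophages against monocytes, 36 to 39 proteasome genes were called in the average under the alternatives that keep all libraries (39 as reported), and 38 to 41 when a library was left out. Leaving out a library gave 30 to 41 calls for young saline, 24 to 28 for old saline, 29 to 31 for young ISRIB and 27 to 32 for old ISRIB. Within cell types, DESeq2 called 1 member with age in saline macrophages (Psmb2), 1 with ISRIB in young macrophages (Psmb2) and 1 in the macrophage ISRIB average (Psmd14), where edgeR called 0. Library totals alone and no filter on low counts each called 1 with age in saline macrophages. The averaged age difference in macrophages had 0 called members with limma voom, the replicate block and the fit of all 39 libraries, in place of 1. Leaving out a library gave 0 to 2 members for that average, 0 to 1 for age with saline, 0 to 2 for ISRIB in young macrophages, 0 to 3 for the ISRIB average and 0 to 1 for the difference of age effects. Calls over all genes moved more: the macrophage ISRIB average had 101, with 17 to 640 over the alternatives, and age with saline had 141, with 60 to 468. Scaling by library totals alone shifted the median of all genes by -0.135 between old saline cell types, and the share of higher calls went from 80.9% to 64.4% for age in saline macrophages, from 54.5% to 41.4% for the macrophage ISRIB average and from 58.8% to 36.4% for the difference of age effects. The cause of these shifts was not tested.

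With the replicate number as a block, where 5 pairs cannot give an exact p below 0.0625, no ratio was called. Same-numbered libraries correlated at -0.12 to 0.12 in macrophages (7 of 19 libraries best with their own number) and at -0.16 to 0.22 in monocytes (2 of 20). In the order young saline, young ISRIB, old saline and old ISRIB, the blocked differences were -1.41, -1.55, -1.21 and -1.32 for Psmb8 over Psmb5, -1.65, -1.80, -1.74 and -1.34 for Psmb9 over Psmb6, and -1.01, -0.92, -0.56 and -0.71 for Psmb10 over Psmb7, and 0.34 for Psmb10 over Psmb7 with age. Signs turned for 2 ratio differences that were never called: Psmb8 over Psmb5 with ISRIB in young macrophages (0.025) and Psmb10 over Psmb7 with age under ISRIB in macrophages (-0.015). Leaving out a library gave, in the same order of ratios, -1.57 to -1.34, -1.85 to -1.66 and -0.92 to -0.83 for young ISRIB and 0.26 to 0.40 for Psmb10 over Psmb7 with age.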

Other observations

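Over the 8 group means, the log2 level of each gene was set against the mean of Psmb8, Psmb9 and Psmb10. These subunits, which make up that mean, had a Pearson r of 0.987 to 0.993 and were set aside. The genes then most like it were Lcn2 (r = 0.995), Yipf1 (0.988), Loxl3 (0.986), Cyb5r4 (0.986) and Trim11 (0.983), all of them outside the proteasome. Of the other members, Psme2 (0.981) and Psme1 (0.972) were most like it. Psmg2 (-0.961) and Psmc6 (-0.904) were the most opposite of the 49 members with a value. The 8 points share the split between 4 monocyte and 4 macrophage groups, so these values describe that split and carry no test.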
